A study of Mus musculus with 12 samples.

Results

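Trp53, which encodes the tumour suppressor p53, and 9 genes that p53 is known to activate were followed through pancreatic tumours of mice that received a focal adhesion kinase inhibitor (FAKi) or its vehicle. The members were taken by name alone, as every non-control probe that the array names Trp53, Cdkn1a, Mdm2, Ccng1, Phlda3, Pmaip1, Bbc3, Bax, Zmat3 or Sesn2. This gave 10 of the 37008 gene names on the array, with 14 of its 56605 probes. Cdkn1a had 3 probes, Mdm2 and Bax had 2 each, and the other 7 genes had 1 each. All 14 probes were well above background in 6 of 6 FAKi and 6 of 6 vehicle tumours, so none was lost to the filter on dim probes.

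The 6 FAKi tumours came from female C57BL/6 mice, aged 8 weeks in the labels, which bore KP tumours placed in the pancreas and received 50 mg/kg of the inhibitor by gavage over 14 days. The 6 vehicle tumours came from mice of the same description that were given vehicle for the same time. Focal adhesion kinase relays signals from integrins, the receptors by which cells grip the matrix. Both groups carried KP tumours. The alleles behind that name, the number of tumour lines used and the p53 status of the host cells are not given in the sources used here, so the Trp53 level is described and is not read as a check of the genotype. Each sample was a piece of whole tumour, in which fewer cells of a type and less RNA per cell cannot be told apart.

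p53 is a transcription factor that is kept scarce by the ubiquitin ligase Mdm2 and accumulates after DNA damage or oncogene activity. It then switches on genes that halt the cell cycle (Cdkn1a), encode a cyclin (Ccng1) or start apoptosis at the mitochondrion (Pmaip1, Bbc3, Bax). Others restrain growth signalling (Phlda3, Sesn2) or act on RNA (Zmat3). It also switches on Mdm2 itself, which closes a negative feedback loop. In pancreatic cancer the gene is often mutated, and many of its targets can also be induced by other factors, as Sesn2 is by the stress factor ATF4.

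The start regions of the members were searched for the p53 response motif, because the targets below are read together as one pathway. RefSeq windows on GRCm38.p6, from 250 bases before to 50 bases after each transcription start, matched 8 of the 10 members, with 11 windows in all. The 10-base p53 consensus, which is its own reverse complement and was therefore read on both strands at once, stood in 5 of these 11 windows (45.5%), against 8.36% of all 32851 windows. A pair of such motifs separated by at most 13 bases, the form of a full p53 response element, stood in 1 member window and in 24 windows overall (0.0731%). The following 4 windows are the upstream start of Cdkn1a (chr17:29090729-29091028, plus strand), Mdm2 (chr10:117710709-117711008, minus strand), Ccng1 (chr11:40755237-40755536, minus strand) and Phlda3 (chr1:135765835-135766134, plus strand), with matches in capitals. They were chosen because Cdkn1a held the only pair, Mdm2 and Ccng1 held 1 match each, and Phlda3 held none.
Cdkn1a: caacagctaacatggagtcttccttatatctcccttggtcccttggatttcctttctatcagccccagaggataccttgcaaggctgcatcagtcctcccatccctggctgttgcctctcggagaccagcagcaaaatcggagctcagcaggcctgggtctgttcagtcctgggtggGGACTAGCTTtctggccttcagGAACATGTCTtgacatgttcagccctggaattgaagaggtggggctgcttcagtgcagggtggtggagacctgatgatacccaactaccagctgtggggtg
Mdm2: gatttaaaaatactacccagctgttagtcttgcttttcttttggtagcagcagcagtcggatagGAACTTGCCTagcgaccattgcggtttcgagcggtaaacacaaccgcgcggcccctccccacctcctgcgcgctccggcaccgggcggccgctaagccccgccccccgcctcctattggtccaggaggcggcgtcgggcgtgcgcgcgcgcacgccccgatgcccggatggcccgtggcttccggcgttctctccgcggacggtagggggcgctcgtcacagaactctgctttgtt
Ccng1: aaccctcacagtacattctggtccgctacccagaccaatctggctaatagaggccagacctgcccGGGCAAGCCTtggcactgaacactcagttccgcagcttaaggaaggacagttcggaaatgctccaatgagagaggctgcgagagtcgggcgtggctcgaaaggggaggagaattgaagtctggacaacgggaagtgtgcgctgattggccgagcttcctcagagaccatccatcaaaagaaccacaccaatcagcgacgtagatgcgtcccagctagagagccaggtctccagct
Phlda3: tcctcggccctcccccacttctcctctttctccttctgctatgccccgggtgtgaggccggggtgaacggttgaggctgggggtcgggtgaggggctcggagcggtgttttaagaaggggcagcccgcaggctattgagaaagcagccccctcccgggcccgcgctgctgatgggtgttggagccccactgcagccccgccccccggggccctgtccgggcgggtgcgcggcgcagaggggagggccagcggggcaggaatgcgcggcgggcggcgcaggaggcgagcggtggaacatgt
The matches in the Cdkn1a window began 73 and 51 bases before the start, those of Mdm2 and Ccng1 began 186 and 185 bases before theirs, and windows of Trp53 and Bax held 1 match each. The 10 bases directly after the second Cdkn1a match, tgacatgttc, miss the consensus at their first base only and are not marked. The capitals therefore mark strict matches and do not outline a response element. These matches describe the letters of the windows and say nothing about binding in these tumours, and a window without a match says only that these letters are not in it.

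The probes are designed strands of 60 bases, and their place along the transcript is given because some values below differed with it. Per the scanner files, the Trp53 probe begins at base 989 of its transcript (mm9 chr11:69403134-69403193, plus strand). Mdm2 probe 2 begins at base 322 and crosses an intron (mm9 chr10:117139375-117142253, minus strand), and Bax probe 1 begins at base 174 and also crosses one (mm9 chr7:52721469-52721624, minus strand). Mdm2 probe 1 and Bax probe 2 begin further downstream, at bases 2875 and 752. Cdkn1a probes 2 and 3 begin at bases 55 and 147, and Cdkn1a probe 1 at base 1619, each of a different annotated transcript. The places of the Cdkn1a probes are therefore not places along 1 common transcript. The only Trp53 probe and the upstream probes of Mdm2 and Bax are shown, since Mdm2 and Bax gave different signs at their upstream and downstream probes.
Trp53: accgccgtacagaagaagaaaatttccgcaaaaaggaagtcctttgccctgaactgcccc
Mdm2 probe 2: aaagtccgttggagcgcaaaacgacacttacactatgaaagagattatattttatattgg
Bax probe 1: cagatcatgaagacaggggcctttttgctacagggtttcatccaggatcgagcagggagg

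Signal was taken on the log2 scale relative to the 75th percentile of each array, so a value of 0 means a probe as bright as that percentile, and levels are not compared between probes. The 75th percentile of log2 signal ranged from 12.82 to 13.42 on FAKi arrays and from 11.82 to 13.88 on vehicle arrays, and between 66.6% and 76.1% of spots cleared the background. In 3994 transcripts with a pair of probes at least 500 bases apart, members left out, the upstream probe was compared with the downstream one. The median of this difference, centred per transcript, was −0.65 in FAKi 6, −0.93 in vehicle 5 and −0.28 in vehicle 6, and it lay between 0.09 and 0.49 in the other 9 tumours. These 3 tumours stood apart, and their arrays also had the lowest median correlations with the other arrays (0.925, 0.921 and 0.901, against 0.944 to 0.958). The index averaged 0.14 ± 0.41 in FAKi and −0.11 ± 0.44 in vehicle tumours (SD, n = 6 each), an exact two-sided permutation p of 0.342. The differences of the members below are given with and without them.

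**Figure D1:**
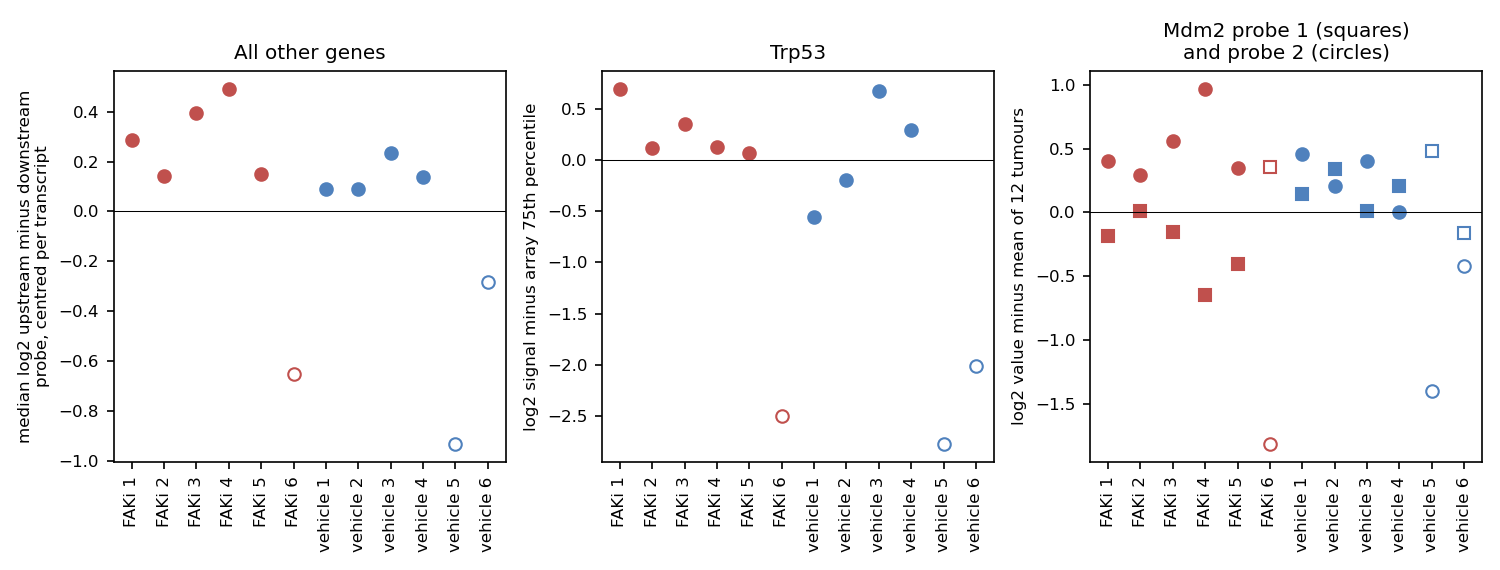
Left, the median log2 difference between upstream and downstream probes of 3994 other transcripts in each tumour, centre, the log2 Trp53 signal minus the array's 75th percentile, and right, the log2 values of Mdm2 probe 1 (squares) and Mdm2 probe 2 (circles) minus their means over 12 tumours, with FAKi in red and vehicle in blue. The 3 open points, FAKi 6, vehicle 5 and vehicle 6, are the lowest in the left and centre panels, and Mdm2 probe 2 is lowest in the same 3 tumours.

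The question was whether the p53 programme differed between FAKi and vehicle tumours. In none of the 14 probes did the difference pass the adjusted threshold of 0.05 over 40460 tested probes (limma, Benjamini-Hochberg), and the background was the same, with 0% of probes called. Of the 14 differences 8 lay below 0, where 37.6% of all probes did. At an unadjusted p under 0.05, 3 of the 14 probes were lower in FAKi tumours and 0 were higher, where 1.99% of all probes were lower and 2.85% higher (4.84% in either direction). Those 3 were Pmaip1, Ccng1 and Phlda3. Without FAKi 6, vehicle 5 and vehicle 6, 4 of the 14 probes had an unadjusted p under 0.05, where 17.6% of all probes did. All 14 probes overlapped between the groups, where 0.231% of the probes with 12 values did not overlap. With 1 probe per gene, the brightest, the median difference of the 10 members was −0.20, against 0.08 over all 27354 genes, and 6 of the 10 lay below 0, as did 39.5% of all genes. In the same 1-probe set 3 of the 10 genes had an unadjusted p under 0.05, all lower in FAKi, where 4.69% of all genes did in either direction, 2.04% lower and 2.65% higher.

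**Figure D2:**
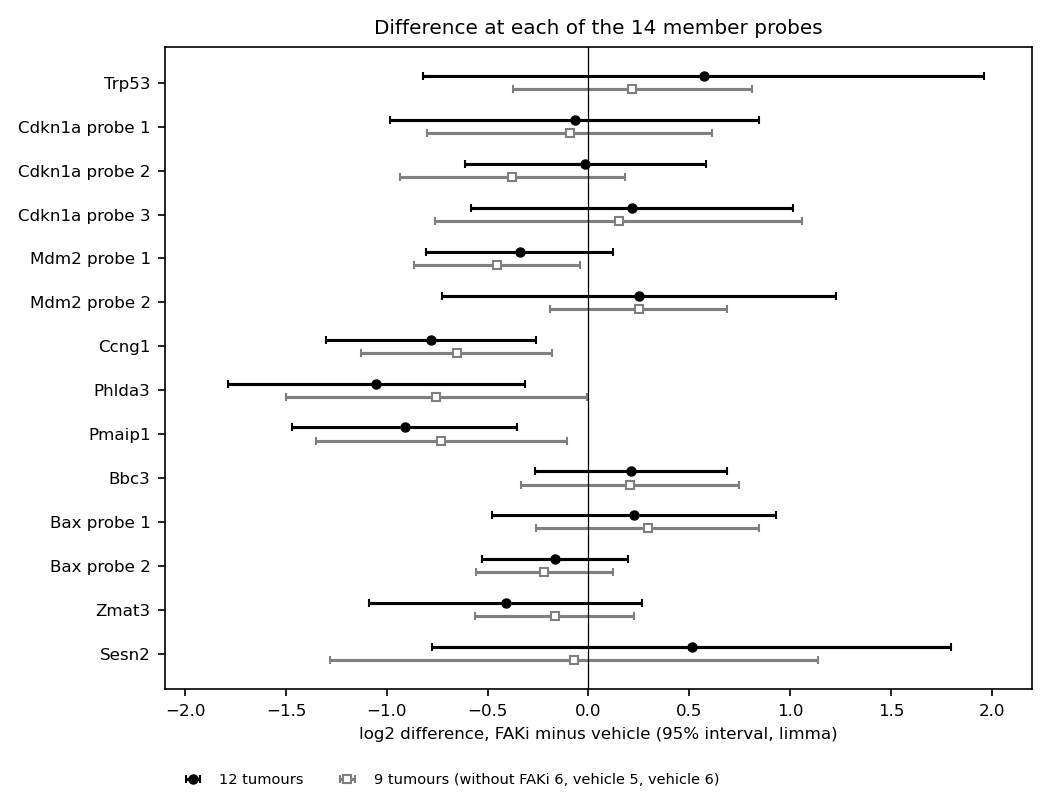
Difference in log2 signal, FAKi minus vehicle, at each of the 14 probes, with 95% intervals from limma, for 12 tumours (black circles) and for 9 tumours without FAKi 6, vehicle 5 and vehicle 6 (grey squares). The intervals of Ccng1, Phlda3 and Pmaip1 lie below 0 in both fits, that of Mdm2 probe 1 only in the fit of 9 tumours, and those of the other 10 probes cross 0 in both. Of all probes, 17.6% had an unadjusted p under 0.05 in the fit of 9 tumours and 4.84% in that of 12.

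Trp53 itself had a log2 value of −2.50 at the lowest, 0.12 at the median and 0.69 at the highest in FAKi tumours, against −2.77, −0.37 and 0.67 in vehicle tumours. The groups overlapped over nearly their whole range, and FAKi 6, vehicle 5 and vehicle 6 lay between −2.77 and −2.01 and the other 9 tumours between −0.56 and 0.69. The difference was 0.57 (SE 0.65, 95% −0.82 to 1.96, limma adjusted p = 0.975), and without those 3 tumours (5 FAKi and 4 vehicle left) it was 0.22 (SE 0.27, 95% −0.38 to 0.81, limma adjusted p = 0.686). The probe reads the middle of the transcript, and the tumours in which it was low were those in which upstream probes of other transcripts were low. Cdkn1a probe 1 also had its 3 lowest values in these tumours, while Cdkn1a probes 2 and 3 did not set them apart, as given below. The part of this index in the Trp53 level was not tested.

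Mdm2, the ligase that marks p53 for destruction and is itself a target, gave opposite signs at its probes. Mdm2 probe 1, downstream, had 0.47, 0.95 and 1.47 (lowest, median and highest) in FAKi tumours and 0.96, 1.29 and 1.60 in vehicle tumours. FAKi 1, FAKi 4 and FAKi 5 lay below every vehicle tumour, and FAKi 6 was the highest of its group. The difference was −0.34 (SE 0.22, limma adjusted p = 0.966), and −0.45 (SE 0.19, unadjusted p = 0.0345, limma adjusted p = 0.246) without the 3 tumours that stood apart. Mdm2 probe 2, upstream, had −5.67, −3.48 and −2.89 in FAKi tumours and −5.25, −3.75 and −3.40 in vehicle tumours, a difference of 0.25 (SE 0.45, limma adjusted p = 0.984), which was also 0.25 (SE 0.20) without the 3 tumours that stood apart. Its low values were again FAKi 6, vehicle 5 and vehicle 6 (−5.67 to −4.27, against −3.86 to −2.89 in the other 9). The probes of this gene had r = −0.68 with each other over 12 tumours and −0.78 without those 3 tumours. They therefore do not describe 1 common level, with or without those tumours.

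Of the cyclin gene Ccng1 and the cell cycle inhibitor Cdkn1a, Ccng1 had lower values in FAKi tumours without passing the adjusted threshold. Over 12 tumours each Cdkn1a probe differed by less than its SE. Ccng1 encodes cyclin G1, which binds protein phosphatase 2A and is among the targets most regularly induced by p53. Its log2 values were 0.12, 0.41 and 0.93 in FAKi tumours and 0.90, 1.21 and 1.82 in vehicle tumours. Only FAKi 1 and FAKi 6, at 0.93 and 0.91, reached the vehicle range, and they did so at its lower edge, next to vehicle 3 and vehicle 4 at 0.90 and 0.94. The mean was 0.49 ± 0.36 in FAKi and 1.28 ± 0.37 in vehicle tumours (SD, n = 6 each), which is 1.72-fold lower in FAKi (difference −0.78, SE 0.24, unadjusted p = 0.00621, limma adjusted p = 0.964). Every one of the 6 FAKi values was under the mean of the vehicle tumours, a pattern that 3.18% of all probes with 12 values showed. Without the 3 tumours that stood apart the difference was −0.65 (SE 0.21, unadjusted p = 0.0116, limma adjusted p = 0.167). In that fit 17.6% of all probes had an unadjusted p under 0.05.

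Cdkn1a encodes p21, the inhibitor of cyclin-dependent kinases through which p53 stops cell division. Its probe 1 had 0.25, 1.67 and 2.56 in 5 FAKi tumours and 0.89, 1.62 and 2.41 in 6 vehicle tumours, the spot of FAKi 3 having been marked as an outlier and left out. The groups lay on top of each other, with a difference of −0.07 (SE 0.42, 95% −0.98 to 0.85, limma adjusted p = 0.995), and with that spot kept the difference was 0.10. Without the 3 tumours that stood apart it was −0.09 (SE 0.31). The lowest 3 values were those of FAKi 6, vehicle 5 and vehicle 6 (0.25 to 0.96, against 1.43 to 2.56 in the other tumours). Cdkn1a probe 2 differed by −0.02 (SE 0.28), but by −0.38 (SE 0.25, limma adjusted p = 0.454) without those 3 tumours and by −0.32 (SE 0.22) with array weights. Cdkn1a probe 3 differed by 0.22 (SE 0.37), by 0.15 (SE 0.41) without them, and by between 0.0050 and 0.45 when each tumour was left out in turn. The groups overlapped at both. Both probes belong to other annotated transcripts than probe 1, so they do not compare upstream with downstream within 1 transcript. FAKi 6, vehicle 5 and vehicle 6 were not set apart at either. They lay at −2.92 to −1.87 against −2.68 to −1.46 in the other 9 for probe 2. For probe 3 they lay at −4.45 to −2.97 against −4.45 to −2.23. The interval of probe 1 leaves room for a change of nearly 1 log2 unit either way.

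**Figure D3:**
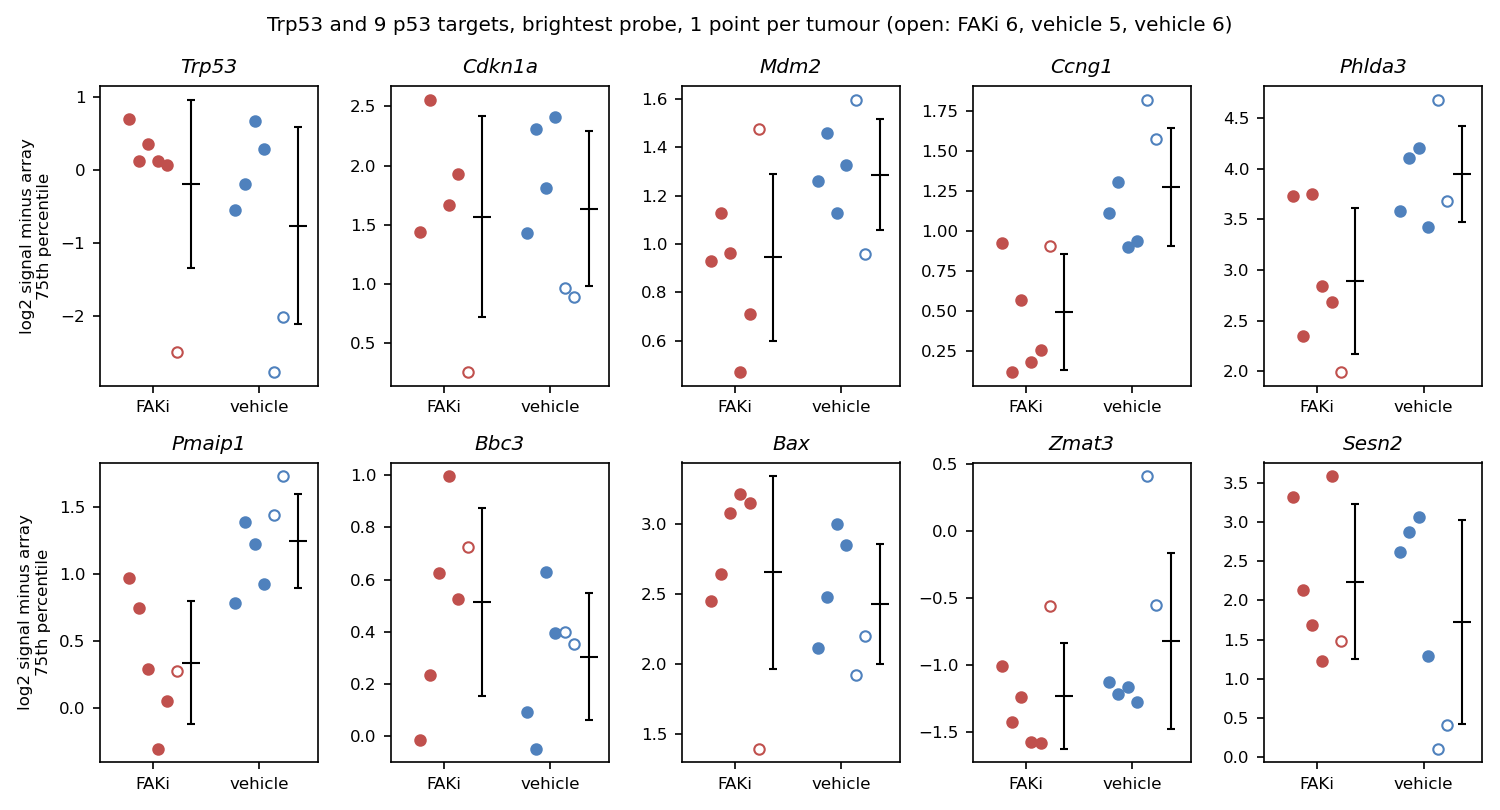
Log2 signal minus the array's 75th percentile for the brightest probe of each of the 10 genes, 1 point per tumour, FAKi in red on the left and vehicle in blue on the right, with the mean and SD as a black bar beside each group (n = 6, or 5 for Cdkn1a in FAKi) and each panel on its own scale. Ccng1, Phlda3 and Pmaip1 have differences of −0.78, −1.05 and −0.91, while in Trp53 the open points of FAKi 6, vehicle 5 and vehicle 6 lie at −2.50, −2.77 and −2.01, below all others.

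The 3 genes of the mitochondrial apoptosis arm differed in sign, and none passed the adjusted threshold. Pmaip1 encodes Noxa, a BH3-only protein that binds the survival factor Mcl1, and its values were lower in FAKi tumours without passing the adjusted threshold. Its log2 values were −0.31, 0.29 and 0.97 in FAKi tumours and 0.78, 1.31 and 1.73 in vehicle tumours. FAKi 1 at 0.97 was the only FAKi tumour inside the vehicle range, above vehicle 1 at 0.78 and vehicle 4 at 0.93, and FAKi 2 followed at 0.75. The mean was 0.34 ± 0.46 in FAKi and 1.25 ± 0.35 in vehicle tumours (SD, n = 6 each), 1.88-fold lower in FAKi (difference −0.91, SE 0.26, unadjusted p = 0.00361, limma adjusted p = 0.900). In FAKi tumours 6 of 6 values were under the mean of the vehicle tumours, and without the 3 tumours that stood apart the difference was −0.73 (SE 0.28, unadjusted p = 0.0258, limma adjusted p = 0.220).

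Bbc3 encodes Puma, a BH3-only protein that binds all the survival members of the BCL2 family, and its difference had the other sign. Its log2 values were −0.02, 0.57 and 0.997 in FAKi tumours and −0.05, 0.38 and 0.63 in vehicle tumours, a difference of 0.21 (SE 0.22, limma adjusted p = 0.971), likewise 0.21 (SE 0.24) without the 3 tumours that stood apart. FAKi 4 and FAKi 6 lay above every vehicle tumour, and the lowest value of both groups together was that of vehicle 2. Bax, the effector that perforates the mitochondrial outer membrane, had 1.40, 2.86 and 3.21 at probe 1 in FAKi tumours and 1.92, 2.34 and 2.998 in vehicle tumours (difference 0.23, SE 0.33, limma adjusted p = 0.978). At Bax probe 2 the values were 0.57, 0.65 and 0.74 in FAKi tumours and 0.60, 0.80 and 1.06 in vehicle tumours. That is a difference of −0.17 (SE 0.17, limma adjusted p = 0.970), again with 6 of 6 FAKi values under the mean of vehicle, so the sign of Bax depended on the probe. Bax probe 2 had an exact permutation p of 0.0260 (adjusted p = 0.951) and an unadjusted limma p of 0.343. Without the 3 tumours that stood apart, probe 1 differed by 0.29 (SE 0.25) and probe 2 by −0.22 (SE 0.15). At probe 1 the lowest tumour was FAKi 6 at 1.40, and vehicle 5 was next at 1.92.

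Phlda3, whose protein competes with the kinase Akt for membrane lipids and so restrains it, had the largest difference among the members over 12 tumours with no block and no array weights. With slide as a fixed block Sesn2 and Trp53 differed by more. Pmaip1 differed by more than Phlda3 with array weights (−0.906 against −0.903) and without FAKi 2 (−0.99 against −0.94). Without FAKi 6, Trp53 (1.03) and Pmaip1 (−0.90) differed by more than Phlda3 (−0.87). Its log2 values were 1.99, 2.76 and 3.75 in FAKi tumours and 3.42, 3.89 and 4.68 in vehicle tumours. FAKi 1 at 3.73 and FAKi 3 at 3.75 lay inside the vehicle range, and the other 4 FAKi tumours lay below all 6 vehicle tumours. The mean was 2.89 ± 0.72 in FAKi and 3.94 ± 0.47 in vehicle tumours (SD, n = 6 each), 2.07-fold lower in FAKi (difference −1.05, SE 0.34, unadjusted p = 0.00862, limma adjusted p = 0.966). Without the 3 tumours that stood apart it was −0.75 (SE 0.34, unadjusted p = 0.0479, limma adjusted p = 0.280).

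Zmat3, a zinc finger protein that binds RNA, had −1.58, −1.34 and −0.56 in FAKi tumours and −1.28, −1.15 and 0.41 in vehicle tumours (difference −0.41, SE 0.31, limma adjusted p = 0.966). FAKi 6, vehicle 5 and vehicle 6 were the highest 3 tumours, at −0.56 to 0.41 against −1.58 to −1.01 in the other 9, and without them the difference was −0.17 (SE 0.18). Sesn2 encodes a leucine sensor that restrains mTORC1. Its values were 1.22, 1.91 and 3.59 in FAKi tumours and 0.10, 1.95 and 3.07 in vehicle tumours (difference 0.51, SE 0.60, limma adjusted p = 0.975). Vehicle 5 at 0.10 and vehicle 6 at 0.41 were lower than every FAKi tumour, and without FAKi 6, vehicle 5 and vehicle 6 the difference was −0.07 (SE 0.54).

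The arrays lay on 5 slides, and only slides 1 and 4 held both groups, each with 1 FAKi and 2 vehicle tumours. Pmaip1 differed by −1.28 within slide 1, by −0.59 within slide 4 and by −0.94 with slide as a block (unadjusted p = 0.0324, limma). Ccng1 differed by −1.11, −0.51 and −0.81 in the same order (unadjusted p = 0.0514 with the block, limma), and Phlda3 by −1.76, −0.16 and −0.96 (unadjusted p = 0.0804 with the block, limma). All 3 kept their sign on both slides, and Phlda3 was close to 0 on slide 4. With the slide block the differences of Trp53 (1.46), Sesn2 (1.84), Mdm2 probe 2 (0.68), Bax probe 1 (0.40) and Zmat3 (−0.66) were over 1.5 times those without it, and none passed the adjusted threshold. Trp53 differed by 1.12 on slide 1 and 1.79 on slide 4, and the low vehicle tumours were vehicle 5 on slide 1 and vehicle 6 on slide 4.

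The cell type markers did not pass the adjusted threshold in any list. Over all genes 39.5% lay below 0, so most lay above it, and the median difference was 0.08. Endothelial markers lay below 0 in 5 of 5 genes (median difference −0.34), with Cdh5, which encodes VE-cadherin, at −1.05 (unadjusted p = 0.0140, limma adjusted p = 0.966). Their summed signal on the log2 scale ranged from 1.90 to 2.87 in FAKi and from 1.83 to 3.74 in vehicle tumours. Erythrocyte markers were below 0 in 3 of 3 genes (median −0.52) and acinar markers above 0 in 7 of 7 (median 0.38). Summed epithelial markers ranged from 7.16 to 7.92 in FAKi and from 6.87 to 8.02 in vehicle tumours, with 3 of 7 below 0 and a median of 0.03. Fibroblast markers had 5 of 7 genes below 0 (median −0.04) and leukocyte markers 2 of 7 (median 0.07). No marker of these lists was below background on all arrays. The part of endothelial, erythrocyte or acinar content in the lower Ccng1, Phlda3 and Pmaip1 was not tested.

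The rest of the pathway was read from lists around the members, 1 brightest probe per gene, and 0 genes of any list passed the adjusted threshold in either direction, as in the background. The lists are read beside all genes, of which 39.5% lay below 0, with a median of 0.08. Of 14 regulators of p53, 7 lay below and 7 above 0, with a median difference of 0.03, or −0.12 without the 3 tumours that stood apart. The smallest unadjusted p-values were those of Ppp1r13l, which encodes the p53 inhibitor iASPP (−0.57, SE 0.28), Hipk2, a kinase that phosphorylates p53 (−0.34, SE 0.27), and Chek1, a checkpoint kinase (0.33, SE 0.28). Of 28 further p53 targets, 17 lay below and 11 above 0 (median −0.11, or −0.21 without those 3 tumours), and 0 had an unadjusted p under 0.05, where 4.69% of all genes did. Trp53i11 differed by −0.71 (SE 0.34), the death receptor gene Fas by 0.92 (SE 0.46, with 6 of 6 FAKi values over the mean of vehicle) and Tigar, whose product lowers glycolysis, by 0.51 (SE 0.26). The share of all probes with the pattern of Fas, which Bid below also showed, was not computed. Promoter windows of these further targets held the 10-base p53 consensus in 6 of 29 (20.7%).

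Of 12 other genes of the BCL2 family, 11 were measured above the filter, Hrk being below background on all arrays. Bid, a BH3-only protein that caspases activate by cleavage, differed by 0.90 (SE 0.24, unadjusted p = 0.00234, limma adjusted p = 0.900), at 2.91 ± 0.41 in FAKi and 2.01 ± 0.31 in vehicle tumours (SD, n = 6 each), with 6 of 6 FAKi values over the mean of vehicle. Mcl1, the survival factor that Noxa binds, differed by −0.37 (SE 0.27) and the BH3-only gene Bik by 0.54 (SE 0.46). Among 12 paralogs of the members the median was −0.05 (−0.17 without those 3 tumours), and Sesn1 (−0.61, SE 0.36), Cdkn1c (−0.67, SE 0.61) and Sesn3 (−0.35, SE 0.43) had the smallest p-values.

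Cell cycle genes that p53 represses through p21 and the DREAM complex lay above 0 in 15 of 16 cases, where 39.5% of all genes lay below 0, with a median of 0.29 against 0.08 over all genes. The median was 0.03 with slide as a fixed block, 0.40 without the 3 tumours that stood apart, 0.16 without FAKi 2, 0.18 without vehicle 2 and 0.45 without vehicle 5. Of the 16 genes, 4 had an unadjusted p under 0.05, where 4.69% of all genes did. Ccne1 (cyclin E1) differed by 0.74 (SE 0.29), Aurkb, a mitotic kinase, by 0.67 (SE 0.29), and Ccnb2 (cyclin B2) by −1.08 (SE 0.47). Mcm5 differed by 0.51 (SE 0.24) and is named because it completes that count, after its value was seen. None passed the adjusted threshold (limma adjusted p = 0.966 for each). The last list held 12 genes, Atf4 itself (−0.21) and targets of ATF4, which also induces Sesn2. In it 7 lay above and 5 below 0 (median 0.06), but the sign of the median was not stable. It was −0.31 with slide as a fixed block, −0.06 without the 3 tumours that stood apart and −0.07 to 0.16 when each tumour was left out. Shmt2, a mitochondrial enzyme of serine metabolism, differed by 0.87 (SE 0.38, unadjusted p = 0.0373, limma), while Vldlr differed by −0.88 (SE 0.48) and Trib3 by −0.45 (SE 0.33).

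Whether the members varied together was read from 45 pairs of brightest probes, with p-values adjusted over the 45. Across 12 tumours 6 pairs passed by r (100000 permutations), but 5 of these involved Trp53 or Zmat3. In both genes FAKi 6, vehicle 5 and vehicle 6 lay outside the range of the other 9 tumours. The Trp53 values fell into separate clusters, and for its pairs no pooled value is given. Ccng1 and Zmat3 had r = 0.81, and 0.73 without the 2 tumours farthest from the median of Ccng1. By rank only 1 of the 45 pairs passed, Bax and Zmat3 (rho = −0.86, permutation adjusted p = 0.0288), with r = −0.74. The remaining pair, Ccng1 and Pmaip1, had r = 0.81 and rho = 0.80 (permutation p = 0.00179 and 0.00274, adjusted p = 0.0201 and 0.0616), and r was 0.91 without the 2 tumours farthest from the median of Ccng1. Every r pools both groups. Ccng1 and Pmaip1 were both lower in FAKi tumours (−0.78 and −0.91), so the group difference is part of their r. With group means subtracted 11 pairs passed, 5 of them among the 6 above, and the r of each pair is not given. Strong correlations were common on these arrays. Over 27240 other genes, r with Ccng1 had a 95th percentile of 0.63 and r with Pmaip1 one of 0.54, while r with Zmat3 ran from −0.72 at the 5th percentile to 0.74 at the 95th.

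Without FAKi 6, vehicle 5 and vehicle 6, 0 of the 45 pairs passed over 9 tumours (exact permutation, smallest adjusted p = 0.0506), and 10 had an unadjusted p under 0.05. Mdm2 and Pmaip1 had r = 0.87 and rho = 0.68, and r was 0.58 without the 2 farthest tumours. Bbc3 and Bax had r = 0.88 and rho = 0.87, and r was 0.90 without the 2 farthest. Mdm2 and Bax are read here from probe 1. In these 9 tumours probe 1 had r = −0.78 (Mdm2) and −0.28 (Bax) with probe 2 of the same gene. Pairs with probe 2 were not computed. Ccng1 had r = 0.85 with Phlda3, 0.80 with Zmat3, 0.78 with Pmaip1 and 0.75 with Mdm2, and Zmat3 had r = 0.78 with Phlda3 and 0.74 with Pmaip1. These values pool both groups too, and in these 9 tumours Ccng1, Phlda3, Pmaip1 and Mdm2 probe 1 each had a lower mean in FAKi. Bbc3 ran the other way, with r = −0.72 with Pmaip1 and −0.70 with Mdm2. Bax and Zmat3 had r = −0.66 (exact permutation, adjusted p = 0.211). Trp53 had r = −0.04 with Cdkn1a, 0.46 with Bax and 0.20 with Zmat3 in these 9 tumours. A slide held at most 3 arrays, too few for a value within slides, and with slide means subtracted 12 pairs passed.

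**Figure D4:**
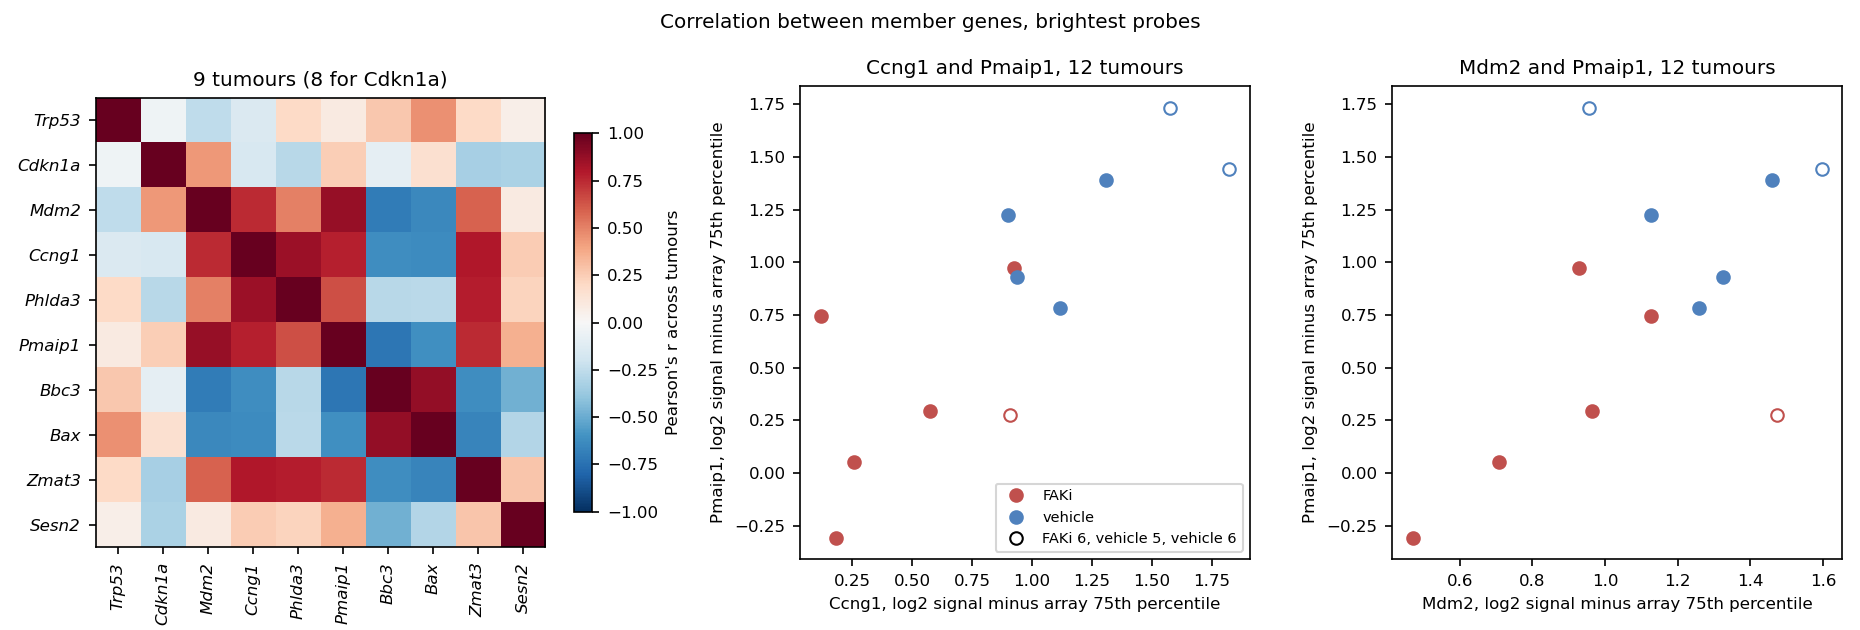
Left, Pearson's r between the brightest probes of the 10 genes over the 9 tumours without FAKi 6, vehicle 5 and vehicle 6 (8 for Cdkn1a), from −1 in blue to 1 in red, and centre and right, Pmaip1 against Ccng1 and against Mdm2 in log2 signal minus the array's 75th percentile, 1 point per tumour, FAKi in red and vehicle in blue. Ccng1 and Pmaip1 have r = 0.81 over 12 tumours, and Mdm2 and Pmaip1 have r = 0.87 over the 9 filled points, with both groups pooled.

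The genes whose levels followed each member most closely were taken from the 16897 candidates with a symbol, by r over the 12 tumours (11 for Cdkn1a), as a description. Trp53 was followed by Spindoc (0.97) and Crk (0.96), Cdkn1a by Pim1 (0.94) and Rtn2 (0.92), and Mdm2 by Arrdc3 (0.96) and Fbxw11 (0.94). Ccng1 was followed by Syap1 (0.95) and Srr (0.94), Phlda3 by Lman2l (0.98) and Ermp1 (0.97), and Pmaip1 by F8a (0.95) and Rcan3 (0.94). Bbc3 was followed by Hdac3 and Msrb2 (0.90 each), Bax by Tfpt and Ssna1 (0.98 each), Zmat3 by Cyfip1 and Ndrg3 (0.97 each), and Sesn2 by Rita1 (0.98) and Ddx51 (0.96). None of these followers was itself a member. The tumours share arrays, slides and the spread of the upstream index, so a high r here is likeness between profiles and no more.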

How the data were processed

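Total RNA of 12 tumours was hybridised to 12 single-colour Agilent arrays with Cy5 label. Intensity values were produced by the authors with Feature Extraction 11.5.1.1, with background subtracted and spatial trend removed, per the file headers, which name mm9 on 11 arrays. A second deposited table of log2 values covered 38569 probes, all 14 member probes included, made by an unstated normalisation, and the submitters' processing notes name limma with no version.

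Spots marked as outliers (71 to 156 per array) were left out, 0 were saturated, and the spots of a probe were averaged after log2 transformation and subtraction of the 75th percentile. Probes well above background on at least 6 of 12 arrays were kept (40460 probes, 27354 genes). Groups were compared per probe with limma 3.58.1 in R 4.3.3 (lmFit, eBayes, no covariate), adjusted by the Benjamini-Hochberg method over all kept probes at 0.05, and the procedure was tested on simulated data. Exact permutation tests over the 924 arrangements are two-sided and cannot go below 0.0022. Genes were named by RefSeq accession (32994 probes), symbol (10224), synonym (520) or the name on the array (12867).

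Members and gene lists were chosen with earlier results of these data known. Named genes are every member probe, the 3 genes of smallest unadjusted p in each list, and the 2 genes most like each member. Nothing in the labels says that each numbered tumour came from a separate mouse, so p-values measure the spread between these samples. Slide 1 held FAKi 5 with vehicle 3 and 5, slide 4 held FAKi 1 with vehicle 2 and 6, slide 3 held FAKi 2, 3 and 4, slide 5 held FAKi 6 and slide 2 held vehicle 1 and 4. Alternatives covered quantile normalisation, normexp with an offset of 50, median centring, the deposited table, filters, probe summaries, array weights, a robust variance trend, slide and replicate blocks, and leaving out arrays. Leaving out FAKi 6, vehicle 5 and vehicle 6 together, and keeping the marked spots, were chosen after seeing the data. Precision is limited by the 6 tumours per group.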

Additional observations from a re-analysis of the deposited data

Results flagged for a closer look

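Trp53 in FAKi 6 was −2.50, far below the nearest FAKi tumour at 0.07, with a gap of 0.804 of the group's range where 0.625 is the critical value for 6 samples. Mdm2 probe 2 in FAKi 6 was −5.67, against the nearest FAKi tumour at −3.57, with a gap of 0.757 of the range. In 28 groups tested, 1.4 such values would arise by chance. FAKi 6 is also 1 of the 3 tumours in which upstream probes of other transcripts were low, and vehicle 5 and vehicle 6 were low at the same probes of Trp53 and Mdm2. The part of that index in these values was not tested.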

How the results depend on the processing

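No member probe passed the adjusted threshold under any alternative. Of 411 alternative values of the differences, 389 kept their direction and side of the threshold and 22 reversed, 10 of them when 1 tumour was left out, all at 6 probes. None of these belonged to Ccng1, Phlda3 or Pmaip1, whose smallest adjusted p under any limma setting was 0.114, 0.152 and 0.114, with array weights. Leaving out each tumour in turn gave −0.87 to −0.67 for Ccng1, −1.22 to −0.87 for Phlda3 and −1.04 to −0.78 for Pmaip1. It gave 0.17 (without vehicle 5) to 1.03 (without FAKi 6) for Trp53, 0.19 (without vehicle 5) to 0.78 (without vehicle 3) for Sesn2, 0.11 (without FAKi 4) to 0.48 (without FAKi 6) for Bax probe 1, 0.11 (without FAKi 4) to 0.32 (without FAKi 1) for Bbc3, −0.54 (without FAKi 6) to −0.16 (without vehicle 5) for Zmat3 and 0.0050 (without FAKi 3) to 0.45 (without FAKi 1) for Cdkn1a probe 3. It gave −0.31 to 0.26 for Cdkn1a probe 1, −0.13 to 0.16 for Cdkn1a probe 2 and −0.0027 to 0.64 for Mdm2 probe 2, which changed sign. Cdkn1a probe 1 was 0.045 in the deposited table, 0.10 with the marked spot kept, 0.19 with slide as a fixed block and 0.54 within slide 1. Cdkn1a probe 2 was 0.021 with the slide block and 0.22 within slide 4, Cdkn1a probe 3 was −0.18 and −1.52, and Bbc3 was −0.079 and −0.17 in the same settings. Sesn2 was −0.090 with array weights and −0.072 without FAKi 6, vehicle 5 and vehicle 6. The exact permutation test gave no value for Cdkn1a probe 1. By that test 4 of the 13 other member probes had an unadjusted p under 0.05, Bax probe 2 among them, where 5.2% of all probes did. The cause of these changes was not tested.

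Over all probes 0 were called, against 1 in the deposited table, 6 with array weights and 0 to 4 when each tumour was left out (4 without FAKi 1). The number with an unadjusted p under 0.05, 1958 of all probes, was 750 with the slide block, 7594 with array weights, 7131 without FAKi 6, vehicle 5 and vehicle 6, and 1107 to 5405 when each tumour was left out (5405 without vehicle 6, 1107 without FAKi 4). The 6 correlated member pairs became 11 with group means subtracted, 12 with slide means subtracted and 0 without the 3 tumours that stood apart. Leaving out 1 tumour gave 0 to 13 pairs, with 0 without vehicle 5 or vehicle 6, 13 without FAKi 6 and 3 without FAKi 5.

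With the replicate number as a block, 0 probes were called and 2555 had an unadjusted p under 0.05. With 6 complete pairs such a block cannot change a mean difference, so those of Ccng1, Phlda3 and Pmaip1 are −0.78, −1.05 and −0.91 by construction, with unadjusted p of 0.0112, 0.0110 and 0.00784 (limma). Same-numbered tumours correlated between −0.06 and 0.51 and 2 of 6 pairs correlated best with their own number, so the numbers were not taken to pair the tumours.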
